A study of Mus musculus with 12 samples.

Results

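miR-190a is a hairpin miRNA that lies in an intron of Tln2, the gene of talin 2, a protein that couples integrins to the actin cytoskeleton. Both of its arms, miR-190a-5p and miR-190a-3p, were taken by name from 1652 mature miRNA names measured in neonatal mouse kidney, so the account covers 2 of 1652 names. The hairpin was chosen by the large difference of miR-190a-5p between the ages, as CPM, in these same libraries. Its difference between the ages is therefore given as a description, without a test, and so are the levels of its 3p arm and the ratio of its arms.

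The study sequenced small RNA of whole kidney, WT and untreated in every case, at day 8 (6 libraries) and at day 0 (6 libraries), to look for miRNAs that change in this period and may act on the mineralocorticoid receptor, which is encoded by Nr3c2. The labels name no strain, litter or batch. Whether each library stands for its own animal is not stated, so the spread between libraries may be partly technical. Whole kidney RNA mixes all cell types of the organ. Recovered miRNA reads ran from 5.16 to 11.8 M per library at day 8 and from 3.37 to 9.05 M at day 0 (M, 1000000), and day 0 replicate 6 was the smallest library. Values are CPM, reads per 1000000 miRNA reads of the library, so each is a share of the library and not an amount per cell. miRNAs known from kidney epithelium were abundant at both ages: all 13 listed were present, with a summed level of 165131 to 193879 CPM at day 8 and 145669 to 167720 CPM at day 0.

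A miRNA hairpin is cut into a duplex of a 5p and a 3p arm, and usually one arm is kept as the guide while the other is degraded. The guide pairs with messenger RNAs mainly through its seed, bases 2 to 8, and lowers their translation and stability. A miRNA within an intron can be made from the transcript of its host gene or from a promoter of its own. miR-190 has been linked to the neuronal transcription factor NeuroD1 in rodent hippocampal neurons and to the Akt phosphatase PHLPP1 in human airway cells. Messenger RNA was not measured here, so neither Tln2 nor any target has a value.

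The mature sequences are shown because the comparison that follows turns on which bases miR-190a shares with its paralog miR-190b. They are RefSeq sequences on GRCm38.p6, printed 5′ to 3′ with the seed in capitals.
miR-190a-5p: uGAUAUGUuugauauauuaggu
miR-190b-5p: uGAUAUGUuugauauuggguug
miR-190a-3p: aCUAUAUAucaagcauauuccu
miR-190b-3p: aCUGAAUGucaagcauacucuca
Both 5p arms have the seed GAUAUGU, which 2 of the 1679 RefSeq mature mouse miRNAs carry. They are identical over the first 15 bases and at 15 of 22 positions in all, and only the 7 differing bases at the 3′ end tell their reads apart. How the authors' processing assigned reads to either paralog is not known here, and the levels of miR-190b-5p and its ratios to miR-190a-5p rest on that assignment. The 3p arms have different seeds, CUAUAUA in miR-190a and CUGAAUG in miR-190b, and each seed occurs in 1 of the 1679.

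The hairpin of miR-190a lies on chromosome 9 at 67236660 to 67236726 on the minus strand (GRCm38). Tln2 spans 67217087 to 67559703 on the same strand. In 2 annotated 58-exon transcripts of Tln2, the hairpin sits in intron 53 of 57, 3953 bases after the exon before it and 7202 bases ahead of the next, in an intron of 11222 bases. In all 6 annotated Tln2 transcripts that span the hairpin it is intronic. The plus strand of chromosome 3 holds miR-190b at 90070020 to 90070099, within no annotated protein-coding gene on that strand, 2549 bases ahead of Tpm3, a tropomyosin gene, and 1672 bases past 4933434E20Rik.
Mir190a: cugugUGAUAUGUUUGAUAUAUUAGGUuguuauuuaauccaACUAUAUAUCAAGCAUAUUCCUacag
Mir190b: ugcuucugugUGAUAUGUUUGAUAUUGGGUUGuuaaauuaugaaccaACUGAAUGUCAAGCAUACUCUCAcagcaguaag
The capitals mark the 5p and the 3p arm, which 14 bases separate in the miR-190a hairpin and 15 in that of miR-190b. RNAfold gave minimum free energies of -23 kcal/mol for miR-190a and -32.7 kcal/mol for miR-190b. In the predicted fold of miR-190a, 19 of the 22 bases of the 5p arm pair with the 3p arm, against 18 of 22 in miR-190b.

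miR-190a-5p, the guide arm, was at 1008, 983, 616, 516, 878 and 781 CPM in day 8 replicates 1 to 6, against 213, 352, 308, 242, 198 and 184 CPM in day 0 replicates 1 to 6. Every day 8 library was above every day 0 library (10.8% of the 564 names compared between the ages separated this way with day 8 higher), and the lowest at day 8 was 1.46 times the highest at day 0. The mean was 797 ± 199 CPM at day 8 and 250 ± 67.0 CPM at day 0 (SD, n = 6 each), a 3.19-fold higher level and a log2 change of 1.67 on the log2(CPM + 1) scale. Between 3177 and 11266 reads per library lay behind the day 8 values and between 619 and 2601 behind those of day 0, so counting error is small beside this spread. In bulk kidney, a change in the number of cells that make a miRNA and a change of its level per cell cannot be told apart.

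By mean level miR-190a-5p held place 93 of the 1652 names at day 8 and place 161 at day 0. Over all 12 libraries it averaged 523 CPM and stood at place 117, between miR-29c-3p (531 CPM) and miR-32-5p (523 CPM). The direction of miR-190a-5p was not that of its neighbours in abundance as a group. Of the 3 names just above and the 3 just below, miR-29c-3p, miR-32-5p and miR-365-3p had positive log2 changes from 0.57 to 0.70, while miR-382-5p, miR-135a-5p and miR-106b-3p had negative ones from -2.09 to -1.27.

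miR-190a-3p, the arm found in few reads, was at 10.1, 16.2, 6.01, 7.29, 9.72 and 8.997 CPM in day 8 replicates 1 to 6, against 1.64, 2.20, 2.13, 3.32, 2.14 and 2.08 CPM in day 0 replicates 1 to 6. Here too the libraries of the 2 ages did not overlap. The mean was 9.72 ± 3.52 CPM at day 8 and 2.25 ± 0.560 CPM at day 0 (SD, n = 6 each), a 4.32-fold higher level. Only 31 to 132 reads per library carried it at day 8 and 7 to 30 at day 0. The 7 reads of day 0 replicate 6 gave 2.08 CPM with an exact 95% Poisson interval of 0.835 to 4.28 CPM, which covers all other day 0 values. The interval of day 0 replicate 4, 2.24 to 4.73 CPM, lay above the values of the other day 0 libraries (1.64 to 2.20 CPM). Read intervals here cover counting error only, since use of molecular identifiers is not known.

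**Figure D1:**
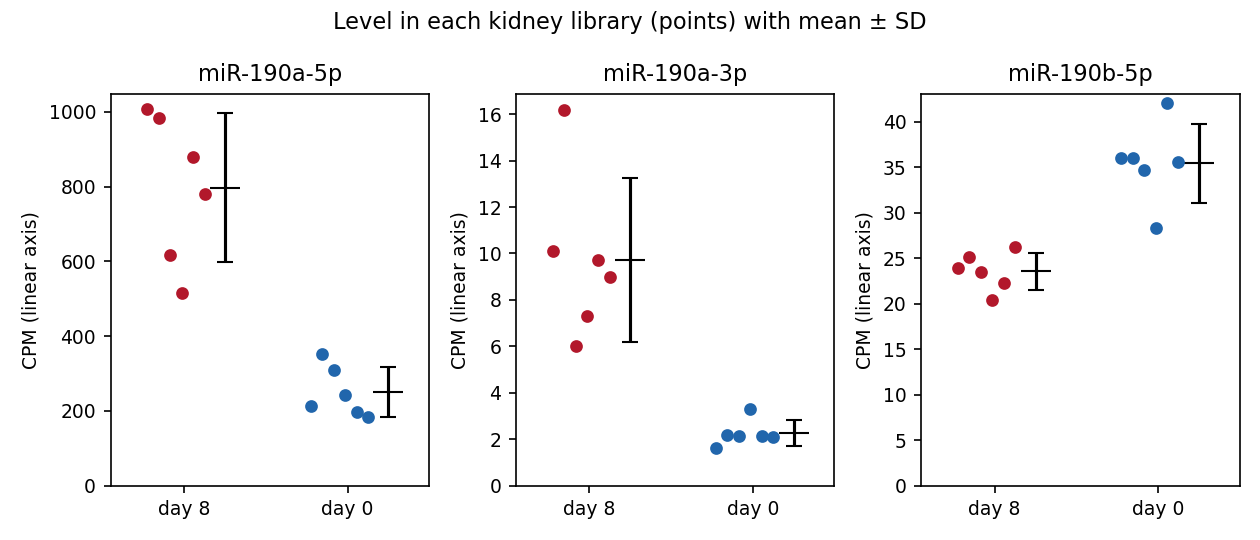
Level in CPM (linear axes from 0) of miR-190a-5p, miR-190a-3p and miR-190b-5p in each of the 6 day 8 libraries (left, red) and 6 day 0 libraries (right, blue), with the mean and SD as a black bar beside them. Both arms of miR-190a lay higher in every day 8 library than in any day 0 library, and miR-190b-5p lay lower, at 20.4 to 26.2 CPM against 28.3 to 42.0 CPM.

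Among all names, 564 of the 1652 reached 1 CPM in at least 6 libraries and were compared between the ages with limma. Both arms of miR-190a passed this filter, with 1.64 CPM or more in each of the 12 libraries. Of the 564 names, 16.5% passed an adjusted p of 0.05 with a higher level at day 8, and 10.8% had no overlap between libraries with day 8 on the higher side. Nothing is read from the members against these shares, because the same contrast chose the hairpin. The log2 change of miR-190a-3p (1.68) held place 7 of 564 from the top and that of miR-190a-5p (1.67) place 8, while the median of all 564 was -0.34. This median depended on the scaling: with TMM factors, which assume that most names do not change, it was -0.00 and 30.3% of names were called higher. The log2 changes were then 2.06 for miR-190a-5p and 1.99 for miR-190a-3p, and 14 of the 564 names were above miR-190a-5p. The fold of the 3p arm in log2 terms was also sensitive to the pseudocount, because its day 0 level was near 2 CPM.

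**Figure D2:**
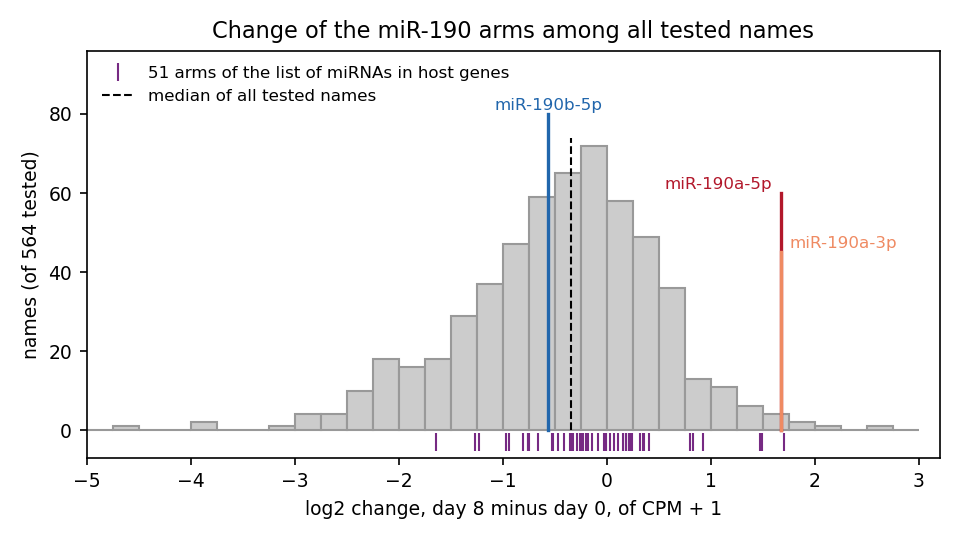
Histogram of the log2 change (day 8 minus day 0, log2 of CPM + 1) of the 564 tested names, with the miR-190 arms as coloured lines, the median of -0.34 dashed, and 51 arms from a list of other miRNAs in host genes as purple ticks. The miR-190a arms lie together in the upper tail at 1.67 and 1.68, and miR-190b-5p lies at -0.56, left of the median. The closeness of the 2 arms depends on the pseudocount: with 0.1 in place of 1, the 5p arm was at 1.67 and the 3p arm at 2.02.

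The 5p arm of miR-190a supplied nearly all reads of the hairpin at both ages. The 3p arm made up 0.993%, 1.62%, 0.966%, 1.39%, 1.10% and 1.14% of the hairpin's arm reads in day 8 replicates 1 to 6, against 0.765%, 0.621%, 0.687%, 1.35%, 1.07% and 1.12% in day 0 replicates 1 to 6. The mean share was 1.20 ± 0.255% at day 8 and 0.935 ± 0.288% at day 0 (SD, n = 6 each), and the libraries of the ages overlapped. Day 0 replicates 4, 5 and 6 lay within the range of day 8, and day 0 replicates 1 to 3 lay below it. The exact 95% binomial intervals were wide, from 0.451% to 2.29% in day 0 replicate 6 and from 0.819% to 1.19% in day 8 replicate 1. In all, 557 reads of the 3p arm stood beside 45815 of the 5p arm at day 8, and 98 beside 10820 at day 0.

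The log2 ratio of 5p to 3p, each as CPM + 1, was 6.24 ± 0.272 at day 8 and 6.24 ± 0.403 at day 0 (SD, n = 6 each), a difference of -0.01. This near equality depended on the pseudocount. Without it the log2 ratio was 6.39 ± 0.295 at day 8 and 6.78 ± 0.451 at day 0, a difference of -0.40, and with a pseudocount of 5 the difference was 0.66. The sign of the difference thus depended on the pseudocount, and 5 CPM is above the day 0 mean of the 3p arm (2.25 CPM). The read shares of the preceding paragraph carry no pseudocount. There the mean 3p share was higher at day 8, but the libraries of the ages overlapped and the 3p reads were few. Among the 163 hairpins with both arms past the filter, limma called a change of the ratio in 58.9% (29.4% higher and 29.4% lower at day 8), from which nothing is read for miR-190a. At each age 27 of the 163 had a higher 5p to 3p ratio than miR-190a. The median log2 ratio was 1.27 at day 8 and 1.24 at day 0, over hairpins that favour the 5p arm and hairpins that favour the 3p arm. Regardless of which arm was favoured, 45 of the 163 at day 8 and 47 at day 0 were more one-sided than miR-190a. The median absolute log2 ratio was 4.29 at day 8 and 4.25 at day 0.

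**Figure D3:**
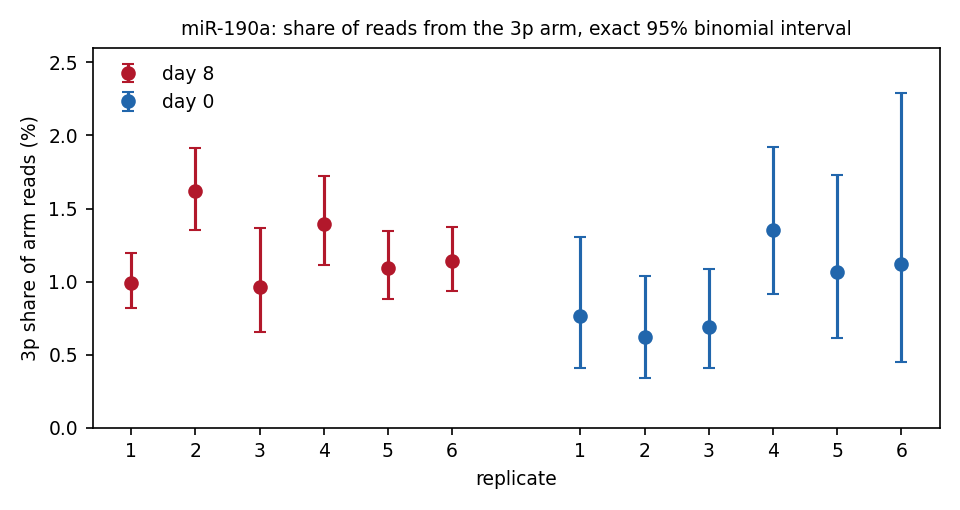
Share of the reads of miR-190a that came from its 3p arm, in percent, in day 8 replicates 1 to 6 (left, red) and day 0 replicates 1 to 6 (right, blue), with exact 95% binomial intervals as bars. The shares run from 0.966% to 1.62% at day 8 and from 0.621% to 1.35% at day 0, and the intervals of day 0 replicates 4 to 6 overlap those of every day 8 library.

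miR-190b-5p, the paralog with the same seed, was lower at day 8 as a share of the library, where miR-190a-5p was higher. It was at 24.0, 25.1, 23.5, 20.4, 22.3 and 26.2 CPM in day 8 replicates 1 to 6, against 36.0, 36.0, 34.7, 28.3, 42.0 and 35.6 CPM in day 0 replicates 1 to 6. No day 8 library reached the level of any day 0 library, as for 35.1% of the 564 names. The mean was 23.6 ± 2.06 CPM at day 8 and 35.4 ± 4.37 CPM at day 0 (SD, n = 6 each). The log2 change was -0.56 with SE 0.11 (limma adjusted p = 0.000388 over the 564 names, of which 48.2% were called lower). This call was lost with TMM factors, where the log2 change was -0.19 (limma adjusted p = 0.176). In both scalings it lay below the median of all names. Between 121 and 309 reads per library supported the day 8 values and 120 to 315 those of day 0. miR-190b-3p was found in 1 to 4 reads per library at day 8 and 0 to 6 at day 0, missed the filter and is not compared.

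The ratio of the paralogs does not depend on library scaling. miR-190a-5p exceeded miR-190b-5p by 42.0, 39.2, 26.3, 25.3, 39.5 and 29.8 times in day 8 replicates 1 to 6, against 5.92, 9.79, 8.88, 8.55, 4.71 and 5.16 times in day 0 replicates 1 to 6. The ages did not overlap, and the mean ratio was 33.7 ± 7.41 at day 8 and 7.17 ± 2.16 at day 0 (SD, n = 6 each). Taken as the supply of the shared seed, the sum of both 5p arms was 821 ± 200 CPM at day 8 and 285 ± 66.3 CPM at day 0. miR-190b-5p made up 3.00 ± 0.657% of that sum at day 8 and 13.01 ± 3.51% at day 0. These ratios carry the change of miR-190a-5p, so they too are given without a test.

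The seed GAUAUGU pairs with the letters ACATATC in a DNA copy of a messenger RNA. These letters, read on the transcript strand, occur in 6.33% of 21020 mouse 3′ untranslated regions, 1 per gene, taken as the longest annotated in GENCODE M21. The same letters followed by an A occur in 2.30%. The 2482-base region of Nr3c2 holds 0 matches, where 10.5% of the 3289 regions of like length hold at least 1. The mouse genes of both targets named above hold 1 match each, both followed by an A, and these are shown with 10 flanking bases on either side and the match in capitals.
Neurod1: caatttttatACATATCagaaaagtag
Phlpp1: tctttccctaACATATCaactgtgtaa
Among regions of like length, 5.96% hold a match for Neurod1 and 3.93% for Phlpp1. Both genes were taken because they were already linked to miR-190, so nothing is read from their matches against these shares. A match describes letters only, and its absence from the annotated Nr3c2 region says nothing about other sites or about regulation.

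Within an age, miR-190a-5p varied more between libraries than most tested names with a mean of at least 100 CPM. Its coefficient of variation was 24.96% at day 8 and 26.9% at day 0, against medians of 15.9% and 11.3% over the 215 tested names with a mean of at least 100 CPM. Of these, 46 varied more at day 8 and 11 at day 0. At day 8, replicates 3 and 4 were low (616 and 516 CPM). At day 0, replicates 2 and 3 were high (352 and 308 CPM).

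Cell type markers also differed between the ages. Their calls, from the fit on log2(CPM + 1), are read against 16.5% of all 564 names called higher and 48.2% called lower. With TMM factors those shares were 30.3% and 34.2%, and the calls of the markers in that fit are not given. Of the 13 kidney epithelial miRNAs, 7 were called higher and 3 lower at day 8, with the sums given above. The endothelial pair, both called higher, summed to 120604 to 146671 CPM at day 8 and 101241 to 115855 CPM at day 0. The liver miRNAs, both called lower, summed to 15.2 to 333 CPM at day 8 and 481 to 3296 CPM at day 0. The 4 tested striated muscle miRNAs of 6 listed were all called lower, with sums of 405 to 502 CPM at day 8 and 498 to 1990 CPM at day 0. Of the 5 leukocyte miRNAs 2 were called higher and 1 lower, and their sum ran from 2885 to 5399 CPM at day 8 and from 2307 to 4441 CPM at day 0. The 3 erythroid miRNAs, none called, summed to 411 to 840.4 CPM at day 8 and 332 to 969.98 CPM at day 0. The 7 neuronal miRNAs, of which 4 were tested and 1 was called lower, summed to 3391 to 4671 CPM at day 8 and 3269 to 6150 CPM at day 0. Nearly all of that was miR-9-5p, while miR-124-3p, the defining neuronal miRNA, reached at most 0.255 CPM at day 8 and 1.19 CPM at day 0.

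Some of these sums, but not all, also set apart the libraries in which miR-190a-5p was low or high within an age. In day 8 replicates 3 and 4, where miR-190a-5p was low, leukocyte miRNAs (3179 and 2885 CPM) and erythroid miRNAs (494 and 411 CPM) had their lowest sums of that age, and liver miRNAs their highest (333 and 280 CPM). Kidney epithelial miRNAs were highest of all in day 8 replicate 3 (193879 CPM) and lowest of that age in day 8 replicate 4 (165131 CPM). Neuronal miRNAs were highest of that age in day 8 replicate 3 (4671 CPM) and lowest in day 8 replicate 4 (3391 CPM). In day 0 replicates 2 and 3, where miR-190a-5p was high, the leukocyte sums (4441 and 3459 CPM) and the neuronal sums (6150 and 4762 CPM) were the highest of that age. The kidney epithelial sums of these libraries (155812 and 145669 CPM) were the lowest of that age. Liver miRNAs were highest in day 0 replicate 2 (3296 CPM), unlike day 8, where they were highest with low miR-190a-5p. The erythroid sum was highest in day 0 replicate 6 (970 CPM), where miR-190a-5p was lowest. In day 0 replicates 2 and 3 it was 883 and 759 CPM. Striated muscle miRNAs were lowest of that age in day 0 replicate 2 (498 CPM) but at 1421 CPM in day 0 replicate 3. The endothelial sum was highest of that age in day 0 replicate 2 (115855 CPM) but 101879 CPM in day 0 replicate 3. The part of epithelial, endothelial, blood, liver, muscle or neuronal cells in the levels of miR-190a was not tested.

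The names whose profile over the 12 libraries lay closest to that of miR-190a-5p were miR-101b-3p, miR-30e-5p, miR-192-5p, miR-194-5p and miR-195a-5p. Closeness was the root mean square difference of log2(CPM + 1), centred on each name's own mean over the 12 libraries, among 311 names with a mean of at least 20 CPM. It was 0.26 log2 units for miR-101b-3p and 0.31 for miR-195a-5p, the fifth, against a median of 1.09 over the 311. For comparison, the 3p arm of miR-190a lay at 0.31 and miR-190b-5p at 1.17. All 5 were chosen for this likeness, which the age difference dominates, so they are listed without a test.

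miR-101b-3p, a miRNA known to act on the histone methyltransferase Ezh2 and hosted by an intron of Rcl1, averaged 219 ± 34.9 CPM at day 8 and 77.7 ± 9.69 CPM at day 0 (SD, n = 6 each). miR-30e-5p, of the miR-30 family that is abundant in kidney epithelium, comes from an intron of Nfyc and averaged 12648 ± 1389 CPM at day 8 and 3891 ± 460 CPM at day 0. miR-192-5p and miR-194-5p, made from shared transcripts and enriched in renal tubules, were 3.52-fold and 3.31-fold higher at day 8. miR-195a-5p, a relative of miR-15 and miR-16, averaged 953 ± 148 CPM at day 8 and 371 ± 34.5 CPM at day 0.

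**Figure D4:**
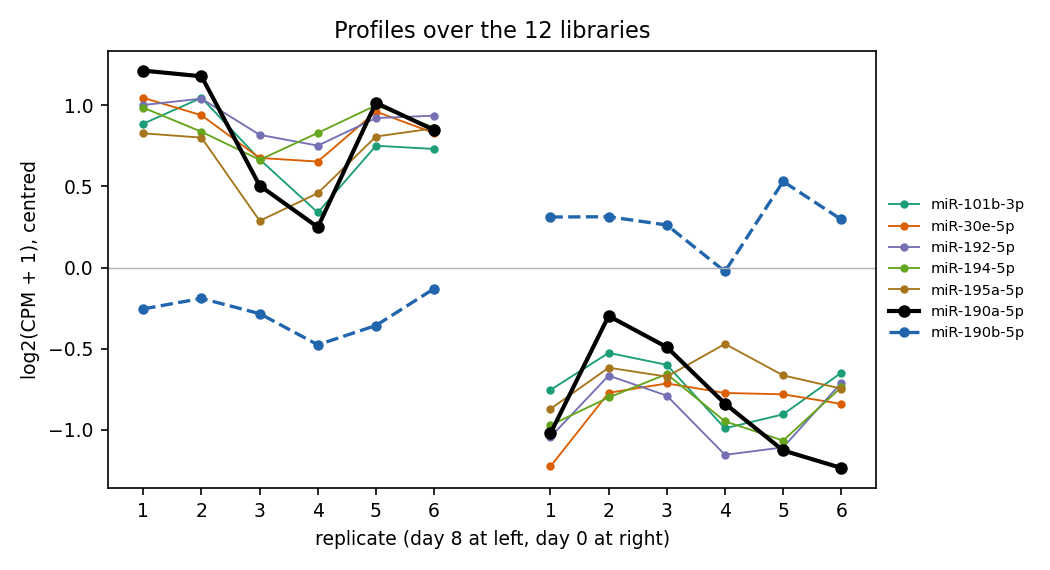
log2(CPM + 1) of miR-190a-5p (black), its 5 closest names and miR-190b-5p (blue, dashed), each centred on its own mean over the 12 libraries, with day 8 replicates 1 to 6 at left and day 0 replicates 1 to 6 at right. Lines only connect the values of one miRNA, since replicates have no order. miR-190a-5p and its closest names lie above 0 in every day 8 library and below 0 in every day 0 library, and miR-190b-5p does not follow them.

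A list of other miRNAs within protein-coding host genes, drawn up as intronic, was used to see where miR-190a stood among them. Of 34 listed hairpins, 30 had a tested arm, giving 51 arms that are not independent of each other. The annotation placed 37 of the 51 in introns only. Another 7, among them miR-93-5p, miR-25-3p, miR-25-5p and miR-26a-5p, had a hairpin overlapping an exon of some host transcript. The last 7 were not matched to a host. Matching was by name, so a missing match does not place an arm outside a host gene. For example, miR-140-5p was not matched, while miR-140-3p of the same hairpin was placed in Wwp2. Of the 51 arms, 9 rose, 17 fell and 25 did not pass, with a median log2 change of -0.14, beside 93 higher and 272 lower of all 564 names (64.7% called) with a median of -0.34. With TMM factors 22 of the 51 were higher and 9 lower, beside 171 higher and 193 lower of all names. Without TMM factors only miR-30e-5p of the 51 had a larger log2 change (1.70) than miR-190a-5p, and with them 3 of the 51 did. This place is a description, since miR-190a-5p was chosen for its large difference. Taking instead every tested name whose hairpin the annotation places in an intron of a protein-coding gene on the same strand gave 157 names besides miR-190a, of which 30 were higher and 64 lower. Names without a match to a host could not be counted among them.

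The abundant members of the list went different ways. miR-30e-5p rose as given above (limma adjusted p = 2.8e-09). miR-93-5p and miR-25-3p, both from hairpins within the replication helicase gene Mcm7 that overlap an annotated exon there, fell. miR-93-5p averaged 9329 ± 1220 CPM at day 8 and 18139 ± 1162 CPM at day 0 (SD, n = 6 each, limma adjusted p = 1.9e-07), and miR-25-3p averaged 8094 ± 658 CPM at day 8 and 13691 ± 743 CPM at day 0 (limma adjusted p = 1.6e-07). The largest fall of the list was that of miR-25-5p, from the same hairpin as miR-25-3p, at 1.497 ± 0.635 CPM at day 8 and 6.59 ± 0.822 CPM at day 0. miR-26a-5p, from an intron of the phosphatase gene Ctdspl and from a hairpin in Ctdsp2 that overlaps an exon, did not pass (log2 change -0.20, limma adjusted p = 0.0765). Its direction and call depended on the setting. With TMM factors it was 0.19 and did not pass, and it was 0.37 with upper quartile factors (limma adjusted p = 0.00466), 0.22 with DESeq2 size factors (limma adjusted p = 0.0472), and -0.27 without day 0 replicate 1 (limma adjusted p = 0.00585). miR-152-3p, from an intron of Copz2, did not pass either (log2 change -0.03), and was at 0.36 and past the threshold with TMM factors (limma adjusted p = 0.00592). For miR-103-3p, from the pantothenate kinase genes Pank2 and Pank3, the log2 change was -0.26 (limma adjusted p = 0.0389). With TMM factors it was 0.13 and did not pass. Leaving out any one of day 8 replicates 1, 2 and 5 or day 0 replicates 3, 4, 5 and 6 also ended the call, with -0.18 (limma adjusted p = 0.0826) without day 8 replicate 2.

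On chromosome 9 no other tested miRNA lay near miR-190a. The nearest on the side of lower coordinates was miR-34b, 16.1 Mb away, whose 5p arm did not pass (log2 change -0.17, limma adjusted p = 0.283, and -0.23 to -0.10 with each library left out) and whose 3p arm was at 14.1 ± 1.95 CPM at day 8 and 22.3 ± 3.61 CPM at day 0 (SD, n = 6 each). The 3p arm changed by -0.62 on the log2 scale (limma adjusted p = 0.000611), and TMM factors made this -0.26 and ended the call. On the other side miR-184-3p, 22.6 Mb away, was at 9.70 ± 5.06 CPM at day 8 and 8.29 ± 5.93 CPM at day 0 and did not pass (log2 change 0.18, limma adjusted p = 0.765). Leaving out single libraries moved it between 0.0038, without day 0 replicate 1, and 0.61, without day 8 replicate 1, and it passed in none of these fits.

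miR-190a-5p was the miRNA poorest in G and C among the tested names with a sequence. It has 5 G or C bases of 22, or 22.7%, and 0 of the other 481 names had a lower share, while the median was 47.6%. The 3p arm has 27.3% and miR-190b-5p 31.8%. The part of base composition in the change of miR-190a was not tested. Of the 23 other tested names with at most 31.8% G and C, 3 were called higher and 10 lower at day 8, with a median log2 change of -0.24, against 77 higher and 234 lower of the 482 with a sequence and a median of -0.34.

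**Figure D5:**
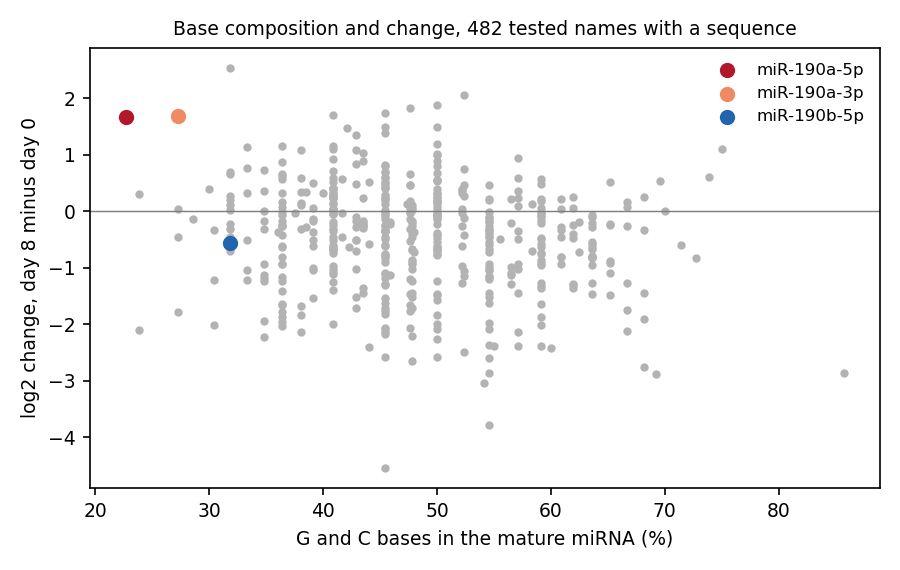
Percentage of G and C bases in the mature miRNA (horizontal) against its log2 change, day 8 minus day 0 (vertical), for the 482 tested names with a RefSeq sequence. miR-190a-5p lies at the left end at 22.7%, miR-190a-3p at 27.3% is likewise high at 1.68, and miR-190b-5p at 31.8% lies below 0.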

How the data were processed

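CPM values for 1652 names came from the authors in a single deposited table, with every library summing to 1000000. The labels' protocols name NucleoSpin for RNA extraction and QIAseq for the libraries, and the submitters' processing notes name FastQC alone. Aligner, build, annotation release and use of molecular identifiers: not given in the sources used here. Age labels set the groups of all 12 columns.

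Within a library the CPM values are whole multiples of 1 read (100% within 0.001 of a read), so reads were recovered. No library was a copy of another (lowest chi-square per degree of freedom within an age 50.9).

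The trend form of limma 3.58.1 in R 4.3.3 was run on log2(CPM + 1) of the 564 names at 1 CPM or more in at least 6 libraries, day 8 minus day 0, two-sided, with Benjamini-Hochberg adjustment at 0.05. This scale understates changes of low names. Arm ratios were fitted likewise over 163 hairpins. The fits were tested on simulated data. p-values measure only the spread between these samples. Alternatives used edgeR 4.0.16 and DESeq2 1.42.0 on recovered reads (edgeR with TMM called 368 names), other scalings, pseudocounts and filters, and each library left out. RNAfold 2.7.2 folded the hairpins.

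Positions are from GENCODE M21 and RefSeq (GRCm38), matched by name, and 482 of the 564 names (85.5%) had a RefSeq sequence. The members, lists and named miRNAs were chosen with earlier results of these data known. The names given are both arms of miR-190a, the arms of miR-190b, the 5 closest profiles, 3 neighbours in abundance on each side, the nearest tested hairpin on each side on chromosome 9, and, of the intronic list, the 6 most abundant names with the largest called rise and fall. Base composition, seed matches, paralog ratios and intronic names by annotation were added after the data were seen.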

Additional observations from a re-analysis of the deposited data

Results flagged for a closer look

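Of 54 groups of 6 libraries examined, 3 held a library whose gap to its nearest neighbour was above Dixon's 95% critical value for its share of the group's range, and chance alone flags about 1 in 20 groups. In day 0 replicate 4, miR-190a-3p was at 3.32 CPM, with the next day 0 library at 2.20 CPM and the lowest at 1.64 CPM. It rests on 30 reads there, with an exact 95% Poisson interval of 2.24 to 4.73 CPM. miR-30e-5p was at 2982 CPM in day 0 replicate 1, below a next value of 3894 CPM. miR-25-3p was at 12290 CPM in day 0 replicate 2, below a next value of 13680 CPM.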

How the results depend on the processing

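No paired analysis was possible because the replicate numbers follow the order of the series and the labels tie no library to another. All values are log2 changes, day 8 minus day 0, unless counts. With TMM, upper quartile and DESeq2 size factor scaling, then edgeR and DESeq2 on recovered reads, miR-190a-5p was at 2.06, 2.24, 2.09, 2.06 and 2.11. miR-190b-5p was at -0.19, -0.013, -0.16, -0.20 and -0.16 in the same order, each past no threshold. miR-26a-5p turned to 0.19, 0.37, 0.22, 0.18 and 0.22, miR-103-3p to 0.13, 0.31, 0.16, 0.15 and 0.17, miR-152-3p to 0.36, 0.54, 0.39, 0.37 and 0.41, and miR-34b-5p to 0.20, 0.37, 0.23, 0.21 and 0.25. Of these turned values, the threshold was passed by miR-152-3p in all 5 settings, by miR-26a-5p with upper quartile, DESeq2 size factors and DESeq2, and by miR-103-3p and miR-34b-5p with upper quartile scaling. miR-190a-3p was at 2.13 with upper quartile scaling, 2.49 with edgeR, 2.55 with DESeq2 and 0.99 with a pseudocount of 5. The change of its arm ratio was 0.66 with a pseudocount of 5 and -0.40 with none. Arm ratio calls numbered 47 with both arms at a mean of at least 20 CPM, where fewer hairpins were tested. Leaving out each library gave 1.59 to 1.79 for miR-190a-5p, 1.53 to 1.79 for miR-190a-3p, -0.09 to 0.10 for the arm ratio, -0.63 to -0.51 for miR-190b-5p, 346 to 379 calls over all names, 24 to 28 on the intronic list and 83 to 102 arm ratio calls. For miR-152-3p it gave -0.067 to 0.035, the highest and only positive value without day 8 replicate 3. Beyond the construction of each scaling, the causes were not tested. The 3p arm, with as few as 7 reads in a library, limits what can be said of arm use at day 0.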
